A study of Populus tremula x Populus alba with 3 samples.

Results

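The authors listed 577 genes as both hypermethylated and changed in expression in poplar buds of the knockdown lines KD2 and KD5 against wild type. Of these genes, 127 carried hypermethylated regions of more than 1 sequence context in the gene body and none in the promoter. They were selected on the presence of a gene in 2 or 3 of the transcribed region tables, for CG, CHG and CHH (H stands for any base but G), and its absence from every promoter table. The member nearest to the authors' expression threshold was Potri.006G263700, with an FDR of 0.0499 in the authors' deposited tables. CG and CHG regions were listed together for 56 of them, CG and CHH for 27, CHG and CHH for 17, and all 3 contexts for 27. Membership comes from the authors' methylation and expression thresholds, so the counts of genes per combination describe the rule and were not tested. Just outside it stood 9 genes listed in several contexts that were also in a promoter table, with logFC from -0.75 (Potri.005G200900) to 2.65 (Potri.017G021800) in the authors' deposited tables.

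Buds came from the tops of hybrid poplars (Populus tremula x Populus alba, INRA clone 717-1B4), a clone that is readily transformed. The genotypes were wild type (WT) and the knockdown lines KD2 and KD5, both carrying an RNA interference construct against PtaDML10. All plants had 4 weeks of long days (16 h light, 21 °C), 12 weeks of short days (8 h light, 19 °C) and 4 weeks of short days at 4 °C. For each genotype 15 buds from 15 plants, taken before visible bud break, gave 1 whole genome bisulfite library. With 3 libraries and no replicates, no methylation difference has a replicate check, and the tables hold only genes that the authors called. The transcribed region tables give, for each gene and context, the gene's coordinates and the exon segments listed beside the region. Many entries hold a further block of coordinates whose meaning the headers do not give, and it was not used for positions. No methylation level, no coordinates labelled as those of the region and no value per library are given. Sequencing depth is therefore unknown, and the labelled tissue and the knockdown of PtaDML10 could not be checked from these tables. The promoter that drives the RNA interference construct is not given in the sources used here.

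In plants, cytosines are methylated in all 3 contexts by different routes. CG methylation is copied at each round of replication by a maintenance methyltransferase, CHG methylation is kept up by chromomethylases in a loop with histone methylation, and CHH methylation is set anew by RNA-directed DNA methylation or a further chromomethylase. DEMETER-like enzymes such as the DML family are DNA glycosylases that excise methylated cytosine from any context. In Arabidopsis, methylation within gene bodies is mostly of the CG kind, while transposons carry all 3.

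Within the same gene, CHG and CHH regions were listed at the same exon segments in most cases, while CG regions mostly lay at other segments. A segment here is 1 numbered piece of 5' UTR, coding sequence or 3' UTR of 1 annotated transcript. Segment numbers are printed for all transcripts of a gene together, so different numbers can stand for the same piece in different transcripts. Among the 33 genes with a segment listed in both CHG and CHH, the 2 sets of segments were identical in 27 (81.8%, exact Clopper-Pearson 95% interval 64.5 to 93.0). For CG against CHG they were identical in 17 of 61 genes (27.9%, 17.1 to 40.8). For CG against CHH they were identical in 17 of 42 genes (40.5%, 25.6 to 56.7). The interval for CHG and CHH does not overlap either of the others, but the 3 shares come from partly different genes. Within the genes listed in all 3 contexts the intervals overlap. There the sets were identical in 16 of 20 genes for CHG and CHH (80.0%, 56.3 to 94.3). They were identical in 7 of 20 for CG and CHG (35.0%, 15.4 to 59.2) and 9 of 21 for CG and CHH (42.9%, 21.8 to 66.0). Genes are not replicates and the intervals cover counting error only, and no test of the difference was run.

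The kind of feature separated the contexts less than the segment did. CG and CHG regions were listed over the same kinds of feature in 40 of 61 genes (65.6%, 52.3 to 77.3), yet shared at least 1 segment in only 20 (32.8%, 21.3 to 46.0). CG and CHH shared the kinds in 30 of 42 genes (71.4%, 55.4 to 84.3) and at least 1 segment in 18 (42.9%, 27.7 to 59.0). CHG and CHH shared the kinds in 27 of 33 genes (81.8%) and at least 1 segment in 29 (87.9%, 71.8 to 96.6). Most genes with CG and CHG regions in coding sequence thus had them in different coding segments of the same gene. Within the genes listed in all 3 contexts, CG shared at least 1 segment with CHG in 45.0% and with CHH in 47.6%. For CHG and CHH that share was 85.0%.

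**Figure D1:**
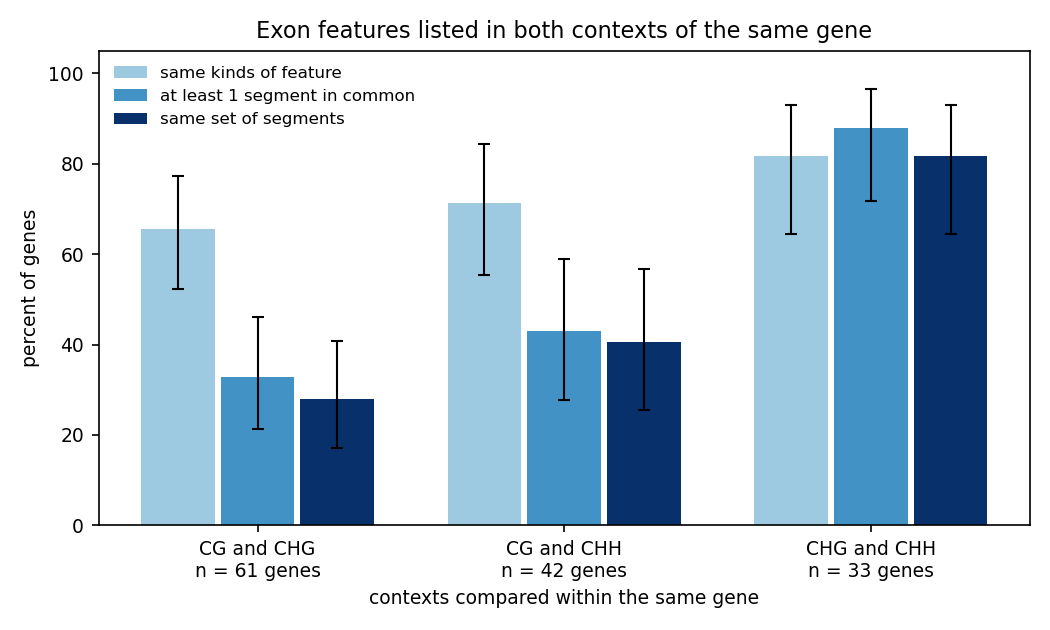
Percent of genes (vertical axis) in which 2 contexts of the same gene list the same kinds of feature, at least 1 common segment, or the same set of segments, for genes with a segment listed in both contexts; bars are shares and whiskers exact Clopper-Pearson 95% intervals. The same set of segments was listed in 27.9% of genes for CG and CHG, 40.5% for CG and CHH and 81.8% for CHG and CHH.

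The listed spans of CG and CHG did not touch in 41 of 61 genes, and lay at least 1000 bases apart in 29 of these. Over the 41 the median was 2272 bases between nearest ends (range 363 to 14498). The spans of CG and CHH did not touch in 24 of 42 genes, with at least 1000 bases in 14 (median 1101, range 111 to 11970). Those of CHG and CHH did not touch in 4 of 33 genes, with at least 1000 bases in 2 (median 1253, range 427 to 2597). The widest distance, 14498 bases, belonged to the TPC1 counterpart Potri.013G131100 (chromosome 13, 14238332 to 14257499), where CG was listed at the 3' UTR. Its CHG listing lay at 20.1 to 20.5% of the gene, in coding sequence numbered 6 or 7 over 6 listed transcripts. TPC1 is a cation channel of the vacuole membrane in Arabidopsis. Distances depend on which segments were listed, since no coordinates in these tables are labelled as those of the regions.

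The 27 genes listed in all 3 contexts allow each context to be set against the other two in 1 gene. In 11 of them CHG and CHH named the same set of segments and CG a different set, in 7 all 3 sets were identical, and in 5 all 3 differed. The sets of CG and CHH were identical with another for CHG in 3 genes, and those of CG and CHG with another for CHH in 1. Different sets can still have members in common: of the 11 genes, CG shared a segment with the others in 1 and none in 7, and in 3 a context had no listed position. These counts include genes for which a context listed no exon segment, whose position within the gene is then not known. Such contexts count as alike when both listed none.

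The 11 genes with identical CHG and CHH sets and another for CG differed in where CG was listed. TAR2 (Potri.012G083300, chromosome 12, 11036296 to 11040930), a tryptophan aminotransferase of auxin synthesis, had CG in coding segment 1 but CHG and CHH in coding segment 5 and the 3' UTR. The vacuolar ABC transporter MRP2 (Potri.004G034800, chromosome 4, 2570295 to 2589028) had CG in coding segment 22 and both CHG and CHH in coding segment 3, with 11970 bases between them. Segments are numbered from the 5' end of the coding sequence. In the chromatin remodeller CHR11 (Potri.010G019800, chromosome 10, 2680424 to 2689330), an ISWI-type ATPase that slides nucleosomes, CG was listed in coding segment 5 and the other contexts in segments 7 and 8. A gene of the TRAF-like family (Potri.006G065300) had CG in coding segments 4 and 5 and the other contexts in segments 2 and 3. The exportin XPO1A counterpart (Potri.019G052100), a carrier of proteins out of the nucleus, had CG in coding segments 4 and 5, whereas CHG and CHH listed no exon segment. The reverse held for an RNA-dependent RNA polymerase gene (Potri.007G081300), of a family that copies RNA into double strands, where only CHG and CHH reached an exon, coding segment 17, and for a cyclin gene (Potri.001G081600), where they reached coding segment 2, beside a 5' UTR segment of the neighbouring model Potri.001G081700.

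Carbonic anhydrase 1 (Potri.001G348900, chromosome 1, 35500037 to 35503657), which interconverts carbon dioxide and bicarbonate in the chloroplast, was the 1 gene of the 11 in which CG and the other contexts had a segment in common. Its CG region named coding segments 2 to 8 of its many transcripts and the 3' UTR, from 58.4% of the gene to its end. CHG and CHH both named coding segment 10 and the 3' UTR, from 73.0% to the end, so the spans overlapped.

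Among the 7 genes with identical sets in all 3 contexts, none listed the 3' UTR. In BRXL4 (Potri.018G064900, chromosome 18, 8216083 to 8223486), a BREVIS RADIX-like protein, all 3 contexts named 5' UTR segments within the first 5.77% of the gene. In a bHLH transcription factor gene (Potri.001G017300) and in Potri.007G137000 they all named coding segment 1. An ARM repeat gene (Potri.011G095700) had all 3 in coding segment 14. An actin-binding protein gene (Potri.018G108000) had them in coding sequence numbered 12 and 13 over 3 listed transcripts, at 73.6 to 74.6% of the gene. A pyridoxal phosphate transferase gene (Potri.001G177000) had all 3 in the same internal coding segments. For the RNA-binding protein gene RBP45C (Potri.001G423400) no context listed an exon segment, so a common position cannot be told from 3 different introns.

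The remaining 9 genes showed other arrangements. CG and CHH shared the 3' UTR in the small GTPase gene ROP4 (Potri.013G123800), a regulator of cell polarity, while CHG named coding segments 5 and 6 and the 3' UTR of another transcript. In the fatty acid elongase gene KCS19 (Potri.013G119800) coding segment 1 was common to all contexts and the 3' UTR was absent from CHG. The vesicle tethering gene of the Vps51 family (Potri.014G120900) had CG and CHH in coding segments 2 to 4 and no exon segment in CHG. In the oxygenase gene Potri.009G091000, CG and CHG met in coding segment 8 and the 3' UTR and CHH lay in coding segments 3 and 4. All 3 contexts differed in the cohesin subunit gene SYN2 (Potri.017G067400), a formin gene of actin assembly (Potri.006G263700), a P-loop nucleoside triphosphate hydrolase gene (Potri.010G253700), a zinc-finger gene (Potri.006G257400) and Potri.007G040000. The first 4 of these had no exon segment in 1 of the contexts. In Potri.007G040000 CG lay in coding segment 3, CHH in segment 4 and CHG in segment 6 and the 3' UTR.

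**Figure D2:**
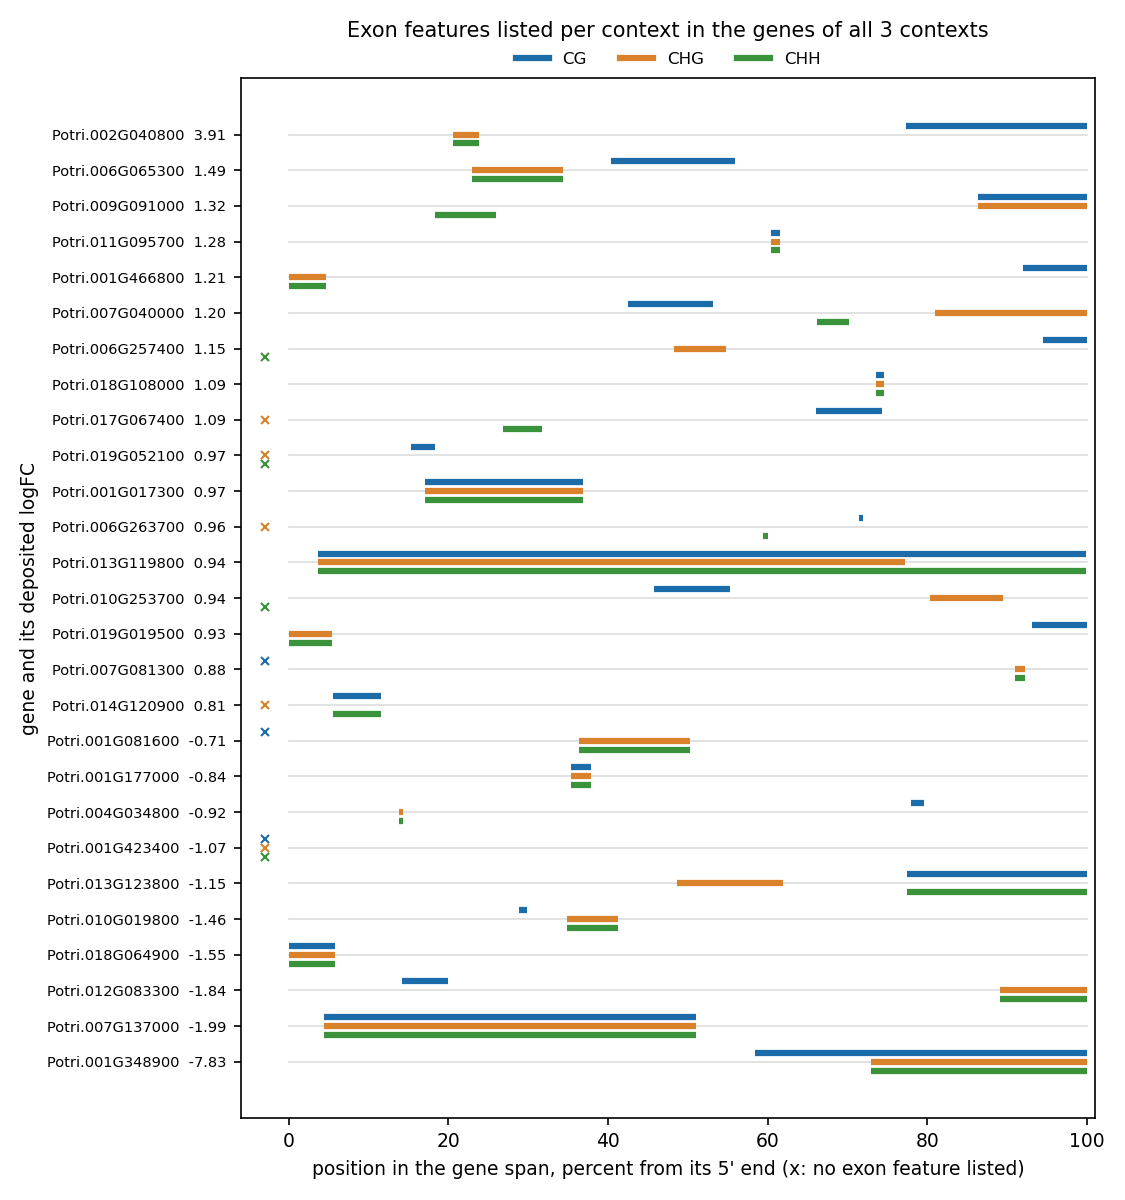
Span of the exon segments listed for CG, CHG and CHH along each of the 27 genes listed in all 3 contexts, as percent of the gene span from its 5' end (horizontal axis); genes are ordered by deposited logFC, printed beside the identifier, and a cross marks a context with no exon segment. Orange (CHG) and green (CHH) bars coincide more often than blue (CG) bars do with either, and in 11 genes only the CHG and CHH sets are identical.

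In 7 genes 1 context listed the 5' UTR and another the 3' UTR. In 9 of these 10 context pairs the 5' UTR was listed in CHG or CHH and the 3' UTR in CG. A UTR segment need not lie at the end of the gene, since transcripts start and stop at different places. A myosin heavy chain-related gene (Potri.001G466800, chromosome 1, 49993866 to 49999390) had CHG and CHH in its first 4.63% and CG in its last stretch, from 92.0% onward. A calcium-binding EF-hand gene (Potri.019G019500) had CHG and CHH in the 5' UTR and coding segment 1, 7473 bases from the CG segments of the 3' UTR. Potri.002G040800 and the zinc finger gene Potri.003G091000 of the RING/FYVE/PHD superfamily had the 5' UTR in CHG and the 3' UTR in CG too, and CHH took the place of CHG in RBL13 (Potri.017G027800), a rhomboid-like membrane protein, and a Rab5-interacting family gene (Potri.010G148600). In the homeodomain-like gene Potri.019G020900 CG listed the 5' UTR and CHH the 3' UTR of 1 transcript, but both lay within the gene, at 18.3 to 39.1% and 58.0 to 59.7% of its span. Potri.010G148600 and Potri.019G020900 were named after their values were seen.

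Over all 127 genes, the kinds of feature listed were close to those of every gene in the same table. Coding sequence was listed for 75 of 110 genes in CG (68.2%, 58.6 to 76.7; 69.8% of the whole table), 67 of 100 in CHG (67.0%, 56.9 to 76.1; 62.4%) and 47 of 71 in CHH (66.2%, 54.0 to 77.0; 61.8%). The 3' UTR was listed for 35 genes in CG (31.8%, against 29.4% of the table), 26 in CHG (26.0%; 29.2% of the table) and 17 in CHH (23.9%; 30.9% of the table). The 5' UTR was listed for 9 genes in CG (8.18%, 3.81 to 15.0, against 15.7%), 13 in CHG (13.0%, 7.11 to 21.2; 14.0% of the table) and 14 in CHH (19.7%, 11.2 to 30.9; 17.1% of the table). Shares near the whole table are no result about these genes, and the 5' UTR in CG was the only feature whose interval left out the share of its table. No exon segment was listed for 14 genes in CG, 20 in CHG and 12 in CHH. The listed spans had their midpoint at a median of 60.3% of the gene in CG (quartiles 24.4 and 87.5, 96 genes), 51.0% in CHG (31.2 and 77.6, 80 genes) and 49.8% in CHH (24.8 and 71.1, 59 genes).

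**Figure D3:**
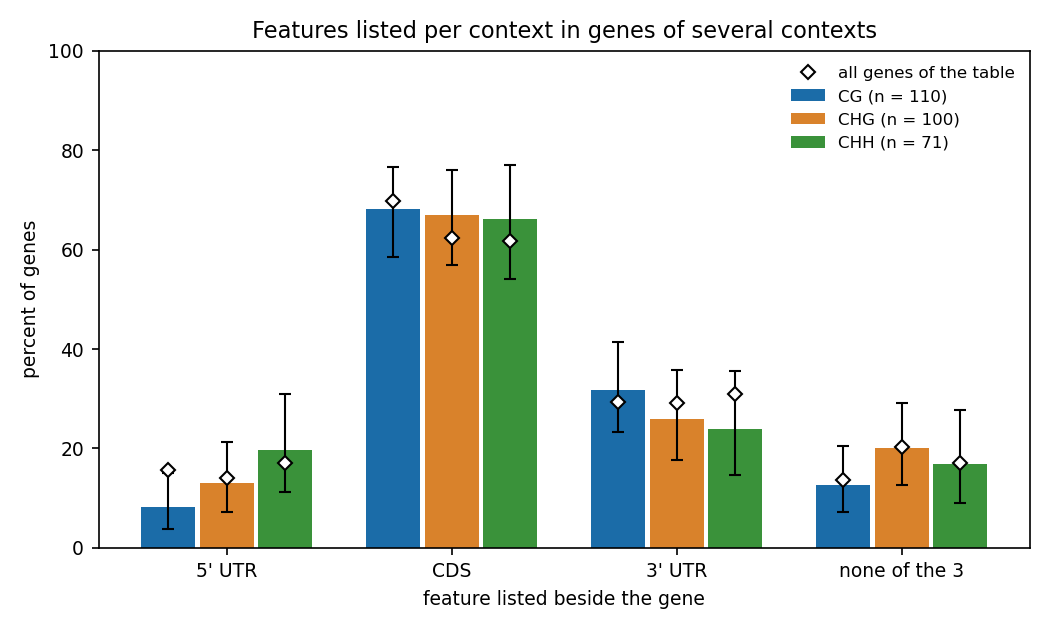
Percent of genes in several contexts (vertical axis) with a 5' UTR, coding sequence (CDS), 3' UTR or none of these listed, by context; bars are shares of the 110, 100 and 71 genes, whiskers exact Clopper-Pearson 95% intervals, and diamonds the share over all genes of the table. The diamonds lie within the whiskers except for the 5' UTR in CG, with 8.18% against 15.7%.

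Genes with several contexts had a positive logFC more often than a negative one, but not at the strictest expression threshold: at an FDR below 0.005, 23 of 45 were negative (51.1%), against 64.5% of all listed genes. Expression was deposited as 1 logFC per gene for both lines together, read as log2. The headers name the comparison as KD2 and KD5 against WT but do not state which sign means higher expression in the knockdown lines. Genes are therefore given as positive or negative and not as induced or repressed. A negative logFC was deposited for 48 of the 127 (37.8%, 29.3 to 46.8) and a positive one for 79, against 51.0% negative among all 577 listed genes and 52.0% (46.8 to 57.3) among the 367 genes with 1 gene body context and no promoter region. The share was 33.9% for CG and CHG, 40.7% for CG and CHH, 47.1% for CHG and CHH and 37.0% for all 3 contexts, and the intervals of these 4 groups overlap. An absolute logFC of at least 1 was reached by 67 genes (52.8%), against 47.8% of all listed genes. Median logFC was -0.97 among the negative and 1.07 among the positive genes, close to -0.86 and 1.10 over all listed genes. All these genes had passed the authors' expression threshold, and the sign was not tested.

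Over the 127 genes together the sign moved with expression level and gene length, as over all listed genes, but not in every group. Median logCPM, the deposited mean expression level, was 5.70 for negative and 4.19 for positive genes of the 127, and 5.76 and 3.96 over all listed genes. Dividing all listed genes into 3 equal bins at a logCPM of 3.95 and 5.44 left 13 of 44 genes negative in the lowest bin (29.5%, 16.8 to 45.2), 9 of 48 in the middle (18.8%, 8.95 to 32.6) and 26 of 35 in the highest (74.3%, 56.7 to 87.5). Over all listed genes these shares were 27.1%, 40.9% and 84.9%, and only in the middle bin did the interval of the 127 leave out the share of all listed genes. Median gene span, introns included, was 5.37 kb for the 127 genes, 6.82 kb for the positive and 3.89 kb for the negative ones, and 3.98 kb for genes with 1 context. The part of gene length and expression level in the excess of positive genes was not tested.

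**Figure D4:**
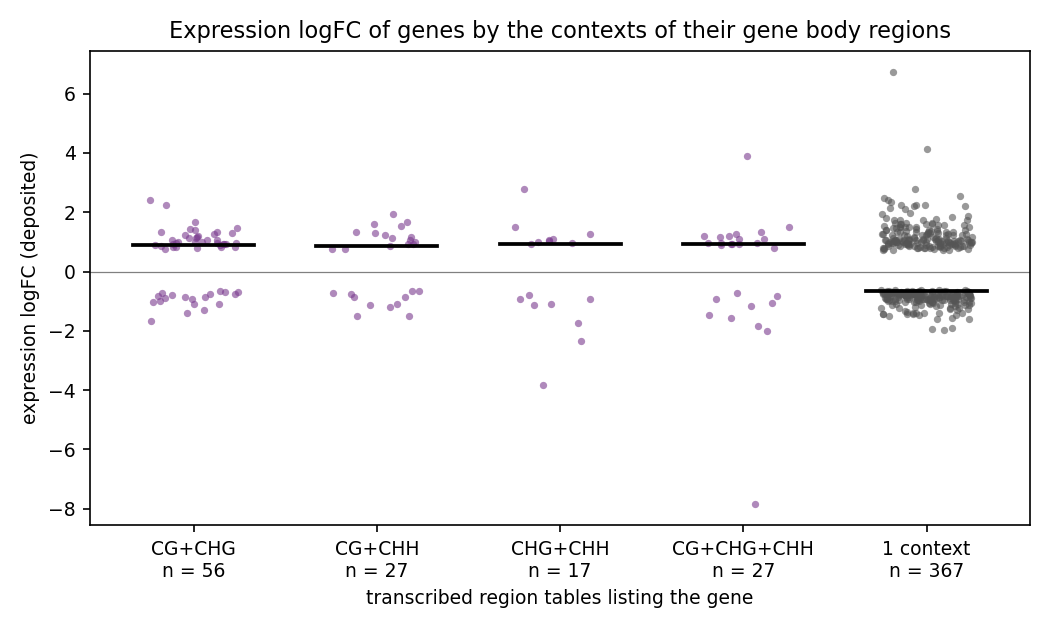
Deposited expression logFC (vertical axis) of each gene, by the transcribed region tables that list it, with genes of 1 context and no promoter region at the right; points are genes and black lines medians. The gap around 0 comes from the authors' expression threshold, so each median falls in the larger of 2 clouds: positive in all 4 groups with several contexts and negative, at -0.65, in the 367 genes with 1 context.

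**Figure D5:**
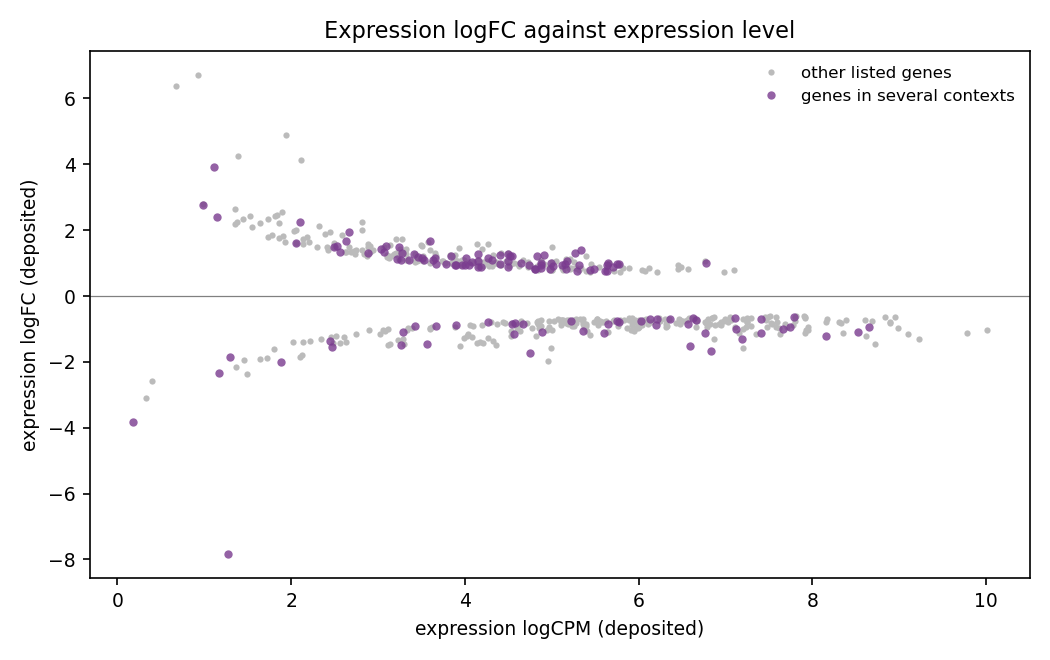
Deposited logFC (vertical axis) against deposited logCPM (horizontal axis) for the 127 genes in several contexts (purple) and the other listed genes (grey). Negative genes lie mainly at high and positive genes at low and middle expression, with medians of 5.70 and 4.19 among the 127.

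Carbonic anhydrase 1 and an unannotated gene held the extremes among the 27 genes with all 3 contexts. Carbonic anhydrase 1 stood at -7.83 in the authors' deposited tables, at a low logCPM of 1.27. Potri.002G040800 (chromosome 2, 2598442 to 2601118) had 3.91 in the authors' deposited tables, at a logCPM of 1.11. Both extremes therefore belong to weakly expressed genes, against a median logCPM of 4.54 for the 127. Next among the negative genes were Potri.007G137000 (-1.99), TAR2 (-1.84), BRXL4 (-1.55) and CHR11 (-1.46) in the authors' deposited tables. Their logCPM also lay under that median, at 1.88, 1.29, 2.47 and 3.56. ROP4 (-1.15), RBP45C (-1.07), MRP2 (-0.92), Potri.001G177000 (-0.84) and the cyclin gene (-0.71) completed the 10 negative genes of the authors' deposited tables. The positive ones, apart from Potri.002G040800, lay between 0.81 for the Vps51 family gene and 1.49 for the TRAF-like gene in the authors' deposited tables. They included XPO1A (0.97), SYN2 (1.09) and the RNA-dependent RNA polymerase gene (0.88), again from the authors' deposited tables.

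Among the 56 genes with CG and CHG regions, a ribosomal protein gene was the most negative and a zinc finger gene the most positive. A zinc-binding ribosomal protein gene (Potri.010G251500) stood at -1.66 in the authors' deposited tables, with CG at the 5' UTR and no exon segment in CHG. The C2H2 zinc finger gene Potri.002G143800 had 2.40 in the authors' deposited tables, with both contexts in coding segment 2, and was weakly expressed at a logCPM of 1.15. An aspartyl protease gene (Potri.005G204600) followed with 2.26, both contexts in the 3' UTR, per the authors' deposited tables. These positive genes shared their segments between contexts, as did the leucine-rich repeat kinase gene Potri.009G075400 (1.67 in the authors' deposited tables, coding segments 7 and 8). In Potri.009G006200 (1.48) and the pentatricopeptide repeat gene Potri.011G133100 (1.42), 1 of the contexts listed no exon segment in the authors' deposited tables. The other most negative genes, Potri.001G323200, Potri.010G132100, Potri.015G012700 and Potri.010G097100, ranged from -1.38 to -1.08 in the authors' deposited tables and carry no description there.

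In the 3 longest genes of this pair with differing kinds of feature, CHG lay on the 5' side of CG, but not in the next longest. The WD40 and bromodomain gene Potri.014G121100 (chromosome 14, 9355280 to 9369319), of a protein class that reads acetylated histones, had CHG in the 5' UTR and coding segment 1 and CG from coding segment 15. PIR121 (Potri.019G025200, chromosome 19, 2871259 to 2885768), a subunit of the SCAR/WAVE complex of actin nucleation, had CHG in the 5' UTR and coding segments 1 to 3 and CG in segments 10 and 11. With TPC1 these are the 3 longest such genes, and they do not stand for all 56. The opposite order occurred in the next longest, Potri.006G143300 (9.98 kb), with CG at 5.74 to 8.70% of the gene and CHG at 47.8 to 50.5%. It also occurred in the ubiquitin ligase gene UPL7 (Potri.016G096500), where both contexts listed coding sequence only. There CG lay in coding segment 4 and CHG in segment 7 or 11, depending on the transcript.

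The 27 genes with CG and CHH regions included several short genes with coinciding regions. Potri.002G155800 (logFC -1.51 and logCPM 6.59 in the authors' deposited tables) had both contexts at the same 5' UTR segment, although the segment belongs to the neighbouring gene model Potri.002G155900, listed in the same entry. Potri.007G077500, of the DUF3511 family, had -1.49 in the authors' deposited tables, with both contexts at coding segment 2 and the 3' UTR. A ribosomal protein L35Ae gene (Potri.008G059400) had -1.21 in the authors' deposited tables at a logCPM of 8.16, and both contexts covered the 5' UTR and coding segments 1 and 2. Ribosomal protein L34 (Potri.011G064800) had -1.13 in the authors' deposited tables, with both contexts at the 3' UTR. The last 3 of these, from 0.962 to 2.57 kb, shared segments of their own gene model, as did Potri.010G112000 (2.77 kb). The span of the Potri.002G155800 entry, 2.81 kb, holds the segment of the neighbouring model and may exceed the gene. Other genes of this pair with similar length shared none: Potri.014G015000 (1.60 kb), RBL13 (2.01 kb) and Potri.010G148600 (2.86 kb). Potri.006G051900 (-1.11 in the authors' deposited tables) shared none, and its CG segments are those of the neighbouring model Potri.006G052000.

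Among the 5 most positive genes of that pair the segments mostly differed. Potri.014G015000 had 1.95 in the authors' deposited tables, with CG at coding segment 4 and the 3' UTR and CHH at coding segments 2 and 3. RBL13 had 1.67 and Potri.003G178500 had 1.62 in the authors' deposited tables, the latter with CHH alone reaching an exon, in the 3' UTR. Of these 5, only the NB-ARC gene Potri.T052400 (1.53 in the authors' deposited tables, on an unplaced scaffold) had the same segments in both contexts, coding segment 2 and the 3' UTR. Potri.005G020100 had 1.33 in the authors' deposited tables, with CG in coding segment 6 and CHH in segments 3 to 5. In the longest genes with differing features, the PHD finger gene Potri.005G171800 and Potri.015G042800, CG lay in coding sequence and CHH reached no exon, and in the purine synthesis gene Potri.010G114400 CHH named a 5' UTR segment that CG did not.

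The 17 genes with CHG and CHH but no CG region had the same segments in both contexts in 14 cases, 3 of them with no exon segment in either. Potri.007G034000, without a description and with the lowest logCPM of all at 0.18, stood at -3.84 in the authors' deposited tables, with both contexts at the 3' UTR. A ribosomal L18p/L5e gene (Potri.010G008200) had -1.74 in the authors' deposited tables, with coding segment 3 and the 3' UTR in both. Ribosomal protein L12-A (Potri.001G346100) had -1.13 in the authors' deposited tables and listed no exon segment, and an elongation factor Tu family gene of translation (Potri.010G219500) had -1.10, with both contexts at the 5' UTR. The 3 genes whose segments differed were Potri.019G049000, of the haloacid dehalogenase-like family (-2.34 in the authors' deposited tables), VTE2 (Potri.018G090700, 0.97), a prenyltransferase of vitamin E synthesis, and a zinc finger protein-related gene (Potri.011G131300, 1.01).

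The positive genes of this pair were led by a putative immune receptor. The TIR-NBS-LRR gene Potri.017G132100 (chromosome 17, 14238230 to 14241576) had 2.77 in the authors' deposited tables, with both contexts in coding segments 3 and 4 and a logCPM of 0.98. The receptor-like protein gene RLP51 (Potri.011G069500) had 1.51 in the authors' deposited tables, both contexts at the 3' UTR. Potri.001G423600 (1.27), the acyltransferase gene Potri.012G041400 (1.10) and the hydrolase gene Potri.018G100600 (1.05) followed in the authors' deposited tables. Each of these 5 genes had identical segments in CHG and CHH.

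By annotated function, 46 of the 127 genes fell in at least 1 of 15 lists of annotation words, and 19 had no annotation text. Ribosome and translation was the largest list, with 8 genes, all negative (median logFC -1.13 in the authors' deposited tables). Over all listed genes 39 of 43 in that list were negative, with a median of -0.86. Beside those named above it held a ribosomal protein S11 gene (Potri.004G131800), with CG in coding segments 2 and 3 and CHG in segments 5 and 6, and a ribosomal L29 gene (Potri.007G093700, -0.77) in the authors' deposited tables. Ribosomal genes are strongly expressed and short, and the part of those properties in their sign was not tested.

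The kinase and immune receptor lists had splits of sign close to those over all listed genes. Kinases and phosphatases had 5 positive and 2 negative genes, against 12 and 5 over all listed genes. They included 2 protein kinase genes, Potri.012G093600 (1.08) and Potri.003G146000 (0.99), and a phosphatidic acid phosphatase gene (Potri.003G111700, 1.15), per the authors' deposited tables. Potri.015G079400 (1.00 in the authors' deposited tables) entered by the words histidine kinase in the name of its ATPase domain, and the transporter list by the word ATPase, neither of which makes it a kinase or a transporter. NB-ARC and leucine-rich repeat genes had 4 positive and 1 negative, against 10 and 3, and the leucine-rich repeat gene Potri.011G121700 had 1.25 in the authors' deposited tables. Ubiquitin, F-box and proteolysis had 5 positive and 1 negative, against 16 and 13. Its members were the aspartyl protease, the RING/FYVE/PHD gene, UPL7 (0.94), UPL6 (Potri.010G150000, 0.92) and the deubiquitinating enzyme UBP27 (Potri.007G077100, 0.94) on the positive side and the conjugating enzyme UBC30 (Potri.019G083800, -0.86) on the negative side of the authors' deposited tables.

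The transport, transcription and chromatin lists were small, with 3 to 5 genes each. Transporters, channels and carriers had 4 positive and 1 negative gene, against 9 and 6 over all listed genes, with TPC1 (0.99), the mechanosensitive channel MSL10 (Potri.006G222500, 0.98) and a nucleotide-sugar transporter gene (Potri.006G278700, 1.02) positive and the outer mitochondrial channel VDAC1 (Potri.017G078200, -0.64) negative in the authors' deposited tables. Transcription factors had 4 positive and 1 negative gene, against 17 and 11. The chromatin list held CHR11, the bromodomain gene (1.05) and the polycomb gene EMF2 (Potri.003G150400, 1.18 in the authors' deposited tables), a repressor of flowering in Arabidopsis, with CG in coding segments 6 and 7 and CHH in segments 10 and 11. These 3 are among 5 such genes over all tables.

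RNA-binding and processing genes had 3 negative and 1 positive gene, against 20 and 10 over all listed genes. The negative ones were RBP45C, an RRM gene (Potri.010G051600, -0.86) with both contexts at the same 3' UTR segments, and the ribonuclease RNS2 (Potri.014G174400, -0.70), and the positive one was Potri.016G062600 (0.87) in the authors' deposited tables. Both pentatricopeptide or tetratricopeptide repeat genes were positive, the tetratricopeptide gene Potri.001G047200 at 0.82 in the authors' deposited tables, as were all 16 over all listed genes. Both genes matched by chloroplast words were negative, against 10 of 11 over all listed genes. They were carbonic anhydrase 1 and PIFI (Potri.001G204300, -0.75 in the authors' deposited tables), a factor of chloroplast electron flow. The words missed chloroplast genes such as TIC40 (Potri.017G129800, 0.75) and VTE2 (0.97), both positive in the authors' deposited tables. The sign over all chloroplast genes was therefore not counted. The cell wall list held 1 gene, a pectin lyase-like gene (Potri.006G122000, -0.94 in the authors' deposited tables), and the cell cycle and microtubule list held the cyclin gene and tubulin folding cofactor B (Potri.006G041400, 0.86). Hormone, vesicle and flowering words matched none of the 127, although TAR2 and the Vps51 gene have such roles under other words.

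The genes lay on 19 chromosomes, with 1 on an unplaced scaffold, and made up 127 of all 524 transcribed region genes. They were 15 of the 71 of chromosome 1, 15 of the 37 of chromosome 10, 8 of the 19 of chromosome 11 and 6 of the 15 of chromosome 19. Chromosomes 4 and 5 had 5 of 32 each. The spread over chromosomes was not tested. Only 3 pairs of neighbouring genes lay within 50000 bases of each other. RBP45C and Potri.001G423600 were 7460 bases apart with logFC of opposite sign (-1.07 and 1.27 in the authors' deposited tables), and UBP27 and Potri.007G077500 were 28812 bases apart, also with opposite signs. The Vps51 gene and the bromodomain gene, 14606 bases apart, were both positive.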

How the data were processed

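Genomic DNA of apical buds was bisulfite sequenced on an Illumina instrument, 1 library per genotype, per the labels' protocols. Bismark and methylKit were used per the submitters' processing notes; no version, filter, coverage or build is given in the sources used here. Gene models carry a Phytozome tag per the file headers, and coordinates are printed as deposited. Expression logFC and logCPM were deposited by the authors and read as log2. The headers name the comparison as KD2 and KD5 against WT, but neither the meaning of the sign nor the source libraries are stated. The p-value and FDR columns deposited by the authors concern expression, and every FDR lies under 0.05. The other deposited unit, the promoter methylation difference, was not used beyond the names of promoter genes.

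Genes were matched across tables by identifier. A feature was read as overlapped by a region when its start was listed, and segments were compared by gene model, transcript, kind and number. Coding segments were numbered from the 5' end in all 51 gene and context entries with 1 transcript and several such segments. Spans run from the first to the last listed segment. Shares have exact Clopper-Pearson 95% intervals, which cover counting error only. No test was run, since no value per library was used. Members, lists and rules were chosen with earlier results of these data known. Named genes were every gene in 3 contexts, the 5 most negative and 5 most positive per pair of contexts, up to 4 per list by absolute logFC, and per pair the 3 longest with differing features; others are given as remaining list members or for a position and were chosen after their values were seen. Alternatives were promoter genes kept, genes of all 3 contexts, an absolute logFC of at least 1, FDR below 0.005, identifiers naming a chromosome, single gene models, pairs with a feature in both contexts, and segments in place of kinds. The comparison of segments was checked on simulated data. Python 3.11.15 and scipy 1.17.1 were used.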

Additional observations from a re-analysis of the deposited data

How the results depend on the processing

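Of 54 alternatives over 11 summary values, 36 left the value within its error or count range, 17 moved it and 1 reversed it. The number of genes fell from 127 to 27 with all 3 contexts required, 67 at an absolute logFC of at least 1 and 45 at an FDR below 0.005, since each keeps fewer genes. At an FDR below 0.005 the share with a negative logFC moved from 37.8% to 51.1% and the median logFC from 0.93 to -0.86, the reversed value. There 23 genes were negative and 22 positive, and with a gap around 0 the median falls in the larger group. Over all listed genes the negative share moved from 51.0% to 64.5%. Why the shares moved was not tested. At an absolute logFC of at least 1 the median was 1.13. Restricting to pairs with a feature listed in each context moved the share with the same kinds of feature from 60.8% to 71.3% over all pairs and from 53.0% to 65.6% for CG and CHG. It moved the share with coding sequence in both from 56.9% to 75.7% over all pairs, 54.2% to 73.8% for CG and CHG, 61.1% to 78.6% for CG and CHH and 56.8% to 75.8% for CHG and CHH. Comparing segments in place of kinds gave 40.9% over all pairs, 25.3% for CG and CHG and 38.9% for CG and CHH, and for coding sequence in both 27.1%, 16.9% and 24.1%; this comparison is stricter by construction. No paired analysis was possible because each genotype has 1 library and no value per library was used, and for the same reason no replicate could be left out. The depth behind the regions is unknown, so it cannot be said how many genes missed a second context for lack of coverage.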

Other observations

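Beside the exon segments, many entries of the transcribed region tables hold a further block of coordinates whose meaning the headers do not give. It was filled for 56 of the 110 genes in CG (50.9%, 41.2 to 60.6), 80 of the 100 in CHG (80.0%, 70.8 to 87.3) and 61 of the 71 in CHH (85.9%, 75.6 to 93.0). Over each whole table the shares were 49.7%, 75.8% and 83.7%. The coding segment closest to the start was listed for 13 genes in CG (11.8%; 17.5% of the table), 10 of 100 in CHG (12.4% of the table) and 10 in CHH (14.1%; 16.3% of the table).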
